A study of Mus musculus with 10 samples.

Results

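The genes described here are 10 components of the Notch pathway, matched by gene symbol in a table of 35288 genes: the ligands Dll1, Dll3, Dll4, Jag1 and Jag2, the receptors Notch1, Notch2 and Notch3, and the target genes Hes1 and Hey1. All 10 were found, and the mean of each was at least 1 TPM (transcripts per 1000000, a read share scaled by transcript length, so that levels can be compared between genes). RNA was sequenced in bulk from tumors of RPR2 mice, a model of small cell lung cancer that lacks the tumor suppressors Rb1, Trp53 and Rbl2, and from RPR2;Nfibf/f mice. The latter, below named Nfib-floxed, carry the same alleles and also floxed alleles of Nfib, the gene of the transcription factor NFIB. There were 10 libraries from 6 mice. RPR2 lung tumors came from JHK1373, JHK1394 and JHK1548, and RPR2 liver metastases from JHK1373 and JHK1394. Nfib-floxed lung tumors came from JHK1398, JHK1399 and JHK997, and Nfib-floxed liver metastases from JHK1398 and JHK1399. Each library is 1 macrodissected tumor taken at morbidity. The sources used here name neither the Cre source nor the age of the mice. Values below follow this order of mice within each group.

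Notch receptors are cleaved after a ligand on a neighbouring cell binds them, and the freed intracellular domain joins the DNA-binding protein RBPJ to switch on targets such as the repressors HES1 and HEY1. In small cell lung cancer most cells are neuroendocrine and make Notch ligands, among them DLL3, a ligand that acts mainly by inhibiting Notch in the cell that makes it. Notch activity is known there for driving a part of the tumor cells to a non-neuroendocrine, HES1-positive state. In vessels, DLL4 and JAG1 are ligands of endothelial cells, NOTCH1 and NOTCH4 are endothelial receptors, and NOTCH3 is the receptor of mural cells. Airway epithelium also uses Notch, chiefly for the choice between club and ciliated cells.

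Nfib itself, read over the whole gene, stood at 28.3 to 117.7 TPM in RPR2 lung tumors, 26.5 to 38.6 TPM in Nfib-floxed lung tumors, 62.8 and 642.8 TPM in RPR2 metastases and 46.1 and 41.3 TPM in Nfib-floxed metastases. The RPR2 lung tumor of JHK1394 therefore lay within the Nfib-floxed range, and a gene total does not show whether the floxed exon was lost. Markers of airway and liver cells also differed between libraries. The summed level of 5 club cell markers was 60565 TPM in the lung tumor of JHK1394 and 55984 TPM in that of JHK1398, against 1677 to 12674 TPM in the other 4 lung tumors and 9.88 to 197.5 TPM in metastases. The summed level of 8 hepatocyte markers was 8267 and 8002 TPM in RPR2 metastases and 82.9 and 2425 TPM in Nfib-floxed metastases, against 85.3 to 1226 TPM in lung tumors. The metastasis of JHK1398 thus had no more hepatocyte marker RNA than the lung tumors. For the main differences that rest on it, values without it are given too.

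Jag2 was the most abundant of the 10 genes in 10 of 10 libraries, and the 3 receptors had the lowest means. Mean levels over the 10 libraries ran from Jag2 (118.5 ± 41.9 TPM, SD, n = 10) through Hes1 (31.4 ± 22.3), Hey1 (27.9 ± 12.9), Dll1 (27.6 ± 12.3), Dll3 (20.9 ± 8.09), Dll4 (16.0 ± 6.71), Jag1 (6.89 ± 4.16), Notch3 (5.11 ± 2.93) and Notch2 (4.13 ± 1.52) to Notch1 (3.09 ± 1.99). From Hes1 to Dll4 each neighbour lay within 1 SD of the next, as did Jag1 and the receptors among themselves. In mean TPM, Jag2 exceeded 91.1% of the 15503 genes tested, and Notch1 exceeded 14.2%. The summed TPM of the 5 ligands was 7.57 to 24.0 times that of Notch1, Notch2 and Notch3. That ratio was lowest in the lung tumor of JHK1394 and highest in the Nfib-floxed metastasis of JHK1399. Notch4, a receptor outside the 10, is not in that receptor sum. It ran from 3.82 TPM in the RPR2 metastasis of JHK1373 to 23.8 TPM in the lung tumor of JHK997. In the latter it exceeded the sum of Notch1, Notch2 and Notch3 (20.9 TPM), so the ratio does not describe all Notch receptors.

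**Figure D1:**
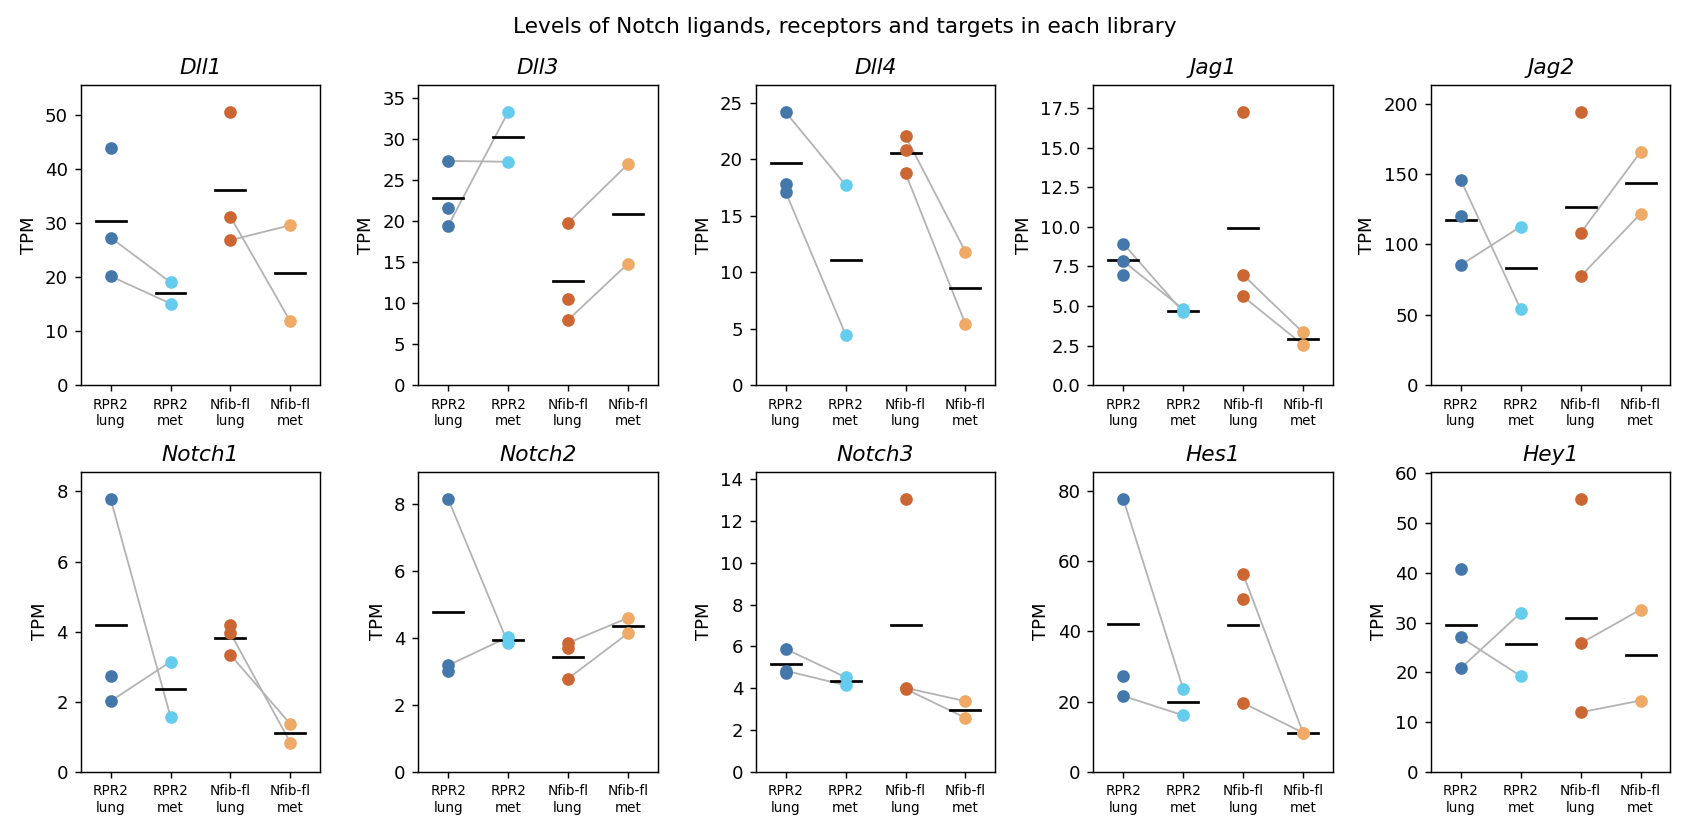
Level in TPM (linear y axis) of each of the 10 genes in each library, by group (Nfib-fl, Nfib-floxed; met, liver metastasis). Points are libraries, black bars are group means and grey lines join the lung tumor and metastasis of 1 mouse; Jag1 is the panel in which every metastasis (2.55 to 4.80 TPM) lies below every lung tumor (5.61 to 17.3 TPM).

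**Figure D2:**
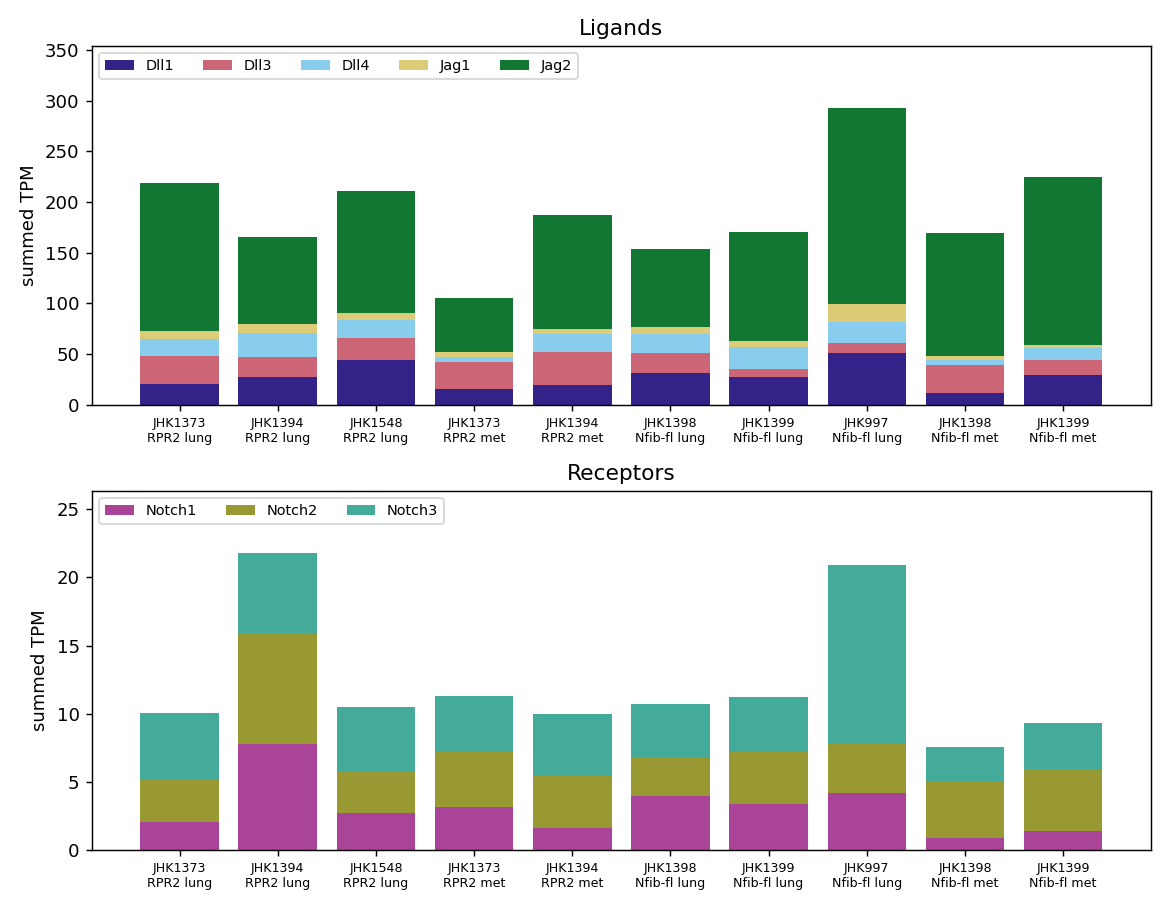
Stacked levels in TPM (linear y axis from 0) of the 5 ligands (top) and of Notch1, Notch2 and Notch3 (bottom) in each library. Jag2 makes up 50.2% to 73.8% of the ligand sum, and the lung tumors of JHK1394 and JHK997 have the highest sums of these receptors. Notch4 is not included.

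Dll1 (ENSMUSG00000014773, chr17:15367354-15376872, minus strand, GRCm38) encodes an activating ligand. It stood at 20.2, 27.3 and 44.01 TPM in RPR2 lung tumors, 31.2, 26.9 and 50.6 TPM in Nfib-floxed lung tumors, 15.1 and 19.1 TPM in RPR2 metastases, and 11.8 and 29.6 TPM in Nfib-floxed metastases. Both RPR2 metastases lay below all RPR2 lung tumors, while the Nfib-floxed metastasis of JHK1399 lay within the lung range. Dll3 (ENSMUSG00000003436, chr7:28293553-28302238, minus strand), the inhibitory ligand, stood at 27.3, 19.4 and 21.6 TPM in RPR2 lung tumors and 19.8, 7.92 and 10.4 TPM in Nfib-floxed lung tumors. It stood at 27.2 and 33.3 TPM in RPR2 metastases and 26.9 and 14.8 TPM in Nfib-floxed metastases. The genotypes overlapped in lung tumors only through JHK1398 (19.8 TPM) and JHK1394 (19.4 TPM), and did not overlap in metastases, where the gap was 26.9 against 27.2 TPM. Dll3 made up 25.8% of the ligand sum in the RPR2 metastasis of JHK1373 and 3.56% in the Nfib-floxed lung tumor of JHK997.

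Dll4 (ENSMUSG00000027314, chr2:119325784-119335962, plus strand), the ligand of sprouting vessels, stood at 17.1, 24.2 and 17.8 TPM in RPR2 lung tumors and 18.8, 22.04 and 20.8 TPM in Nfib-floxed lung tumors. It stood at 4.46 and 17.7 TPM in RPR2 metastases and 5.40 and 11.8 TPM in Nfib-floxed metastases. The 6 lung tumors lay close together, and 3 of the 4 metastases lay below all of them. Jag1 (ENSMUSG00000027276, chr2:137081456-137116644, minus strand) encodes a ligand made by many epithelia and by vessels. It stood at 7.84, 8.95 and 6.98 TPM in RPR2 lung tumors, 6.97, 5.61 and 17.3 TPM in Nfib-floxed lung tumors, 4.80 and 4.62 TPM in RPR2 metastases, and 3.32 and 2.55 TPM in Nfib-floxed metastases. The lung tumor of JHK997 held the highest value. Jag2 (ENSMUSG00000002799, chr12:112907819-112929776, minus strand), the ligand of many epithelial and neural precursors, stood at 145.8, 85.4 and 120.4 TPM in RPR2 lung tumors and 77.2, 108.2 and 194.0 TPM in Nfib-floxed lung tumors. It stood at 53.9 and 112.7 TPM in RPR2 metastases and 121.8 and 165.7 TPM in Nfib-floxed metastases, so that the genotypes overlapped in lung tumors and not in metastases.

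Of the ligand genes, 3 carry the E-box CAGCTG, the kind of site that basic helix-loop-helix proteins bind, in the 250 bases upstream of a RefSeq start (build GRCm38.p6), and these are shown as the matches found among the motifs searched. Each line gives 30 bases, 5′ to 3′ on the gene's strand, with the E-box in capitals.
Dll1, chr17:15377047-15377076, minus strand, 132 to 127 bases upstream of the second of 2 starts: tgcattaccataCAGCTGagcgcacaaaga
Dll3, chr7:28301786-28301815, minus strand, 7 to 2 bases upstream: aaatataagactccggcatccagCAGCTGc
Jag1, chr2:137116585-137116614, minus strand, 82 to 77 bases upstream: ccgcgtttcatgCAGCTGatctgaaaggga
Relative to the gene spans given above, which come from GENCODE, the Dll3 and Jag1 sites lie within the gene rather than upstream of it. Sequences were at hand for 8 of the 10 genes, not Hes1 and Hey1. CAGCTG reads alike on both strands, and 4271 of 32851 RefSeq starts hold it in the same window. TGGGAA, the core bound by RBPJ, was found on either strand in 0 of the 8 and in 21.6% of all starts. The palindrome bound by NFI proteins, TGGC and GCCA separated by 5 bases of any kind, was found in 0 of the 8 and in 0.7% of all starts. A match is a description of these letters, not evidence of binding.

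Notch1 (ENSMUSG00000026923, chr2:26457903-26516663, minus strand) stood at 2.02, 7.79 and 2.74 TPM in RPR2 lung tumors, 3.96, 3.34 and 4.18 TPM in Nfib-floxed lung tumors, 3.14 and 1.57 TPM in RPR2 metastases, and 0.835 and 1.36 TPM in Nfib-floxed metastases. The lung tumor of JHK1394 was the highest and both Nfib-floxed metastases were the lowest of the 10. Notch2 (ENSMUSG00000027878, chr3:98013527-98150361, plus strand) stood at 3.18, 8.15 and 3.01 TPM in RPR2 lung tumors, 2.78, 3.85 and 3.70 TPM in Nfib-floxed lung tumors, 4.03 and 3.84 TPM in RPR2 metastases, and 4.14 and 4.598 TPM in Nfib-floxed metastases. Apart from JHK1394, the Notch2 values lay within 2.78 to 4.598 TPM, and its SD on the log2 scale over the 10 libraries, 0.35, was the lowest of the 10 genes. Notch3 (ENSMUSG00000038146, chr17:32120820-32166852, minus strand) stood at 4.83, 5.87 and 4.72 TPM in RPR2 lung tumors, 3.96, 4.01 and 13.05 TPM in Nfib-floxed lung tumors, 4.14 and 4.53 TPM in RPR2 metastases, and 2.58 and 3.38 TPM in Nfib-floxed metastases. The high Notch3 value belonged to the lung tumor of JHK997, which also held the highest values of Dll1, Jag1, Jag2 and Hey1.

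Hes1 (ENSMUSG00000022528, chr16:30064384-30067796, plus strand) stood at 21.6, 77.8 and 27.3 TPM in RPR2 lung tumors, 56.4, 19.6 and 49.3 TPM in Nfib-floxed lung tumors, 16.1 and 23.7 TPM in RPR2 metastases, and 11.2 and 11.1 TPM in Nfib-floxed metastases. Its SD on the log2 scale, 0.93, was the highest of the 10 genes and exceeded that of 78.5% of genes tested. Hes1 was highest in the lung tumors of JHK1394 and JHK1398, the same libraries that held the most club cell marker RNA, and the part of that RNA in the Hes1 level was not tested. Hey1 (ENSMUSG00000040289, chr3:8663359-8667256, minus strand) stood at 27.0, 20.8 and 40.7 TPM in RPR2 lung tumors, 12.0, 25.8 and 54.9 TPM in Nfib-floxed lung tumors, 19.3 and 32.0 TPM in RPR2 metastases, and 14.3 and 32.6 TPM in Nfib-floxed metastases. The Hey1 groups overlapped in every comparison. The lung tumor of JHK1398, with the second highest Hes1, held the lowest Hey1, while that of JHK997 was high for both.

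In lung tumors 0 of the 10 genes passed limma's test for Nfib genotype on log2(TPM + 1) with Benjamini-Hochberg adjustment over 15503 genes, and 1 of them, Dll3, had an unadjusted p under 0.05. The test called 0% of all genes in this comparison, where 1230 genes (7.93%) had an unadjusted p under 0.05, so the absence of calls is not particular to Notch genes. Dll3 was 22.8 ± 4.097 TPM (SD, n = 3) in RPR2 and 12.7 ± 6.25 TPM (SD, n = 3) in Nfib-floxed lung tumors. On the log2(TPM + 1) scale, which understates changes of low genes, it differed by -0.87 ± 0.38 (SE, Nfib-floxed minus RPR2; 95% interval -1.72 to -0.03; limma unadjusted p = 0.0447, adjusted p = 0.622). The other 9 differed by -0.28 (Notch2) to 0.26 (Dll1). The median difference of the 10 was 0.06, beside -0.10 over all genes tested. Values did not overlap between genotypes for 0 of the 10, against 14.5% of all genes. Without the lung tumors of JHK1394 and JHK1398, Dll3 differed by -1.32 with an adjusted p of 0.292 by limma, and without that of JHK1399 by -0.61.

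In liver metastases, too, 0 of the 10 genes passed limma's test for genotype, against 2.04% of all genes, and 0 had an unadjusted p under 0.05, against 12.8% of all genes. The largest differences were those of Jag2, 0.86 ± 0.49 (SE; 95% interval -0.22 to 1.93; limma adjusted p = 0.540), and Hes1, -0.76 ± 0.63 (SE; 95% interval -2.15 to 0.64; limma adjusted p = 0.747). Leaving out 1 metastasis at a time moved the Jag2 difference to 0.33 (without JHK1373), 1.38 (JHK1394), 1.08 (JHK1398) and 0.64 (JHK1399). Jag2 was 83.3 ± 41.6 TPM (SD, n = 2) in RPR2 and 143.7 ± 31.1 TPM (SD, n = 2) in Nfib-floxed metastases. For 7 of the 10 genes (Dll3, Jag1, Jag2, Notch1, Notch2, Notch3 and Hes1) the values of the genotypes did not overlap, but with 2 libraries in each group 45.8% of all genes did not overlap either. The median difference of the 10 was -0.31, beside 0 over all genes. Without the Nfib-floxed metastasis of JHK1398, which leaves 1 library in that group, the Hes1 difference was -0.76 and that of Dll4 moved from -0.16 to 0.34. The lone library is then assumed to vary like the other groups.

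Averaged over both tissues, with mouse as a random effect, 0 of the 10 passed limma's test for Nfib genotype, against 0.587% of all genes. At an unadjusted p under 0.05 there was 1 of 10, against 13.4% of all genes, so the share was not above that of all genes. That gene was again Dll3, at -0.72 ± 0.31 (SE; 95% interval -1.40 to -0.04; limma unadjusted p = 0.0392, adjusted p = 0.339), lower on average in both tissues, at -0.98 (limma adjusted p = 0.143) without the metastasis of JHK1398 and at -0.45 (adjusted p = 0.684) without that of JHK1399. No gene of the 10 separated all 5 Nfib-floxed from all 5 RPR2 libraries, which 1.34% of all genes did. The genotype difference did not differ detectably between tissues for any of the 10: the interaction called 0 of them, against 0.581% of all genes, and 0 had an unadjusted p under 0.05, against 9.68% of all genes. The smallest limma adjusted p was 0.800 (Jag2, 0.82 ± 0.63, SE, and 1.04 without the metastasis of JHK1398). These intervals are wide, and a p that misses the threshold does not show that levels were equal.

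**Figure D3:**
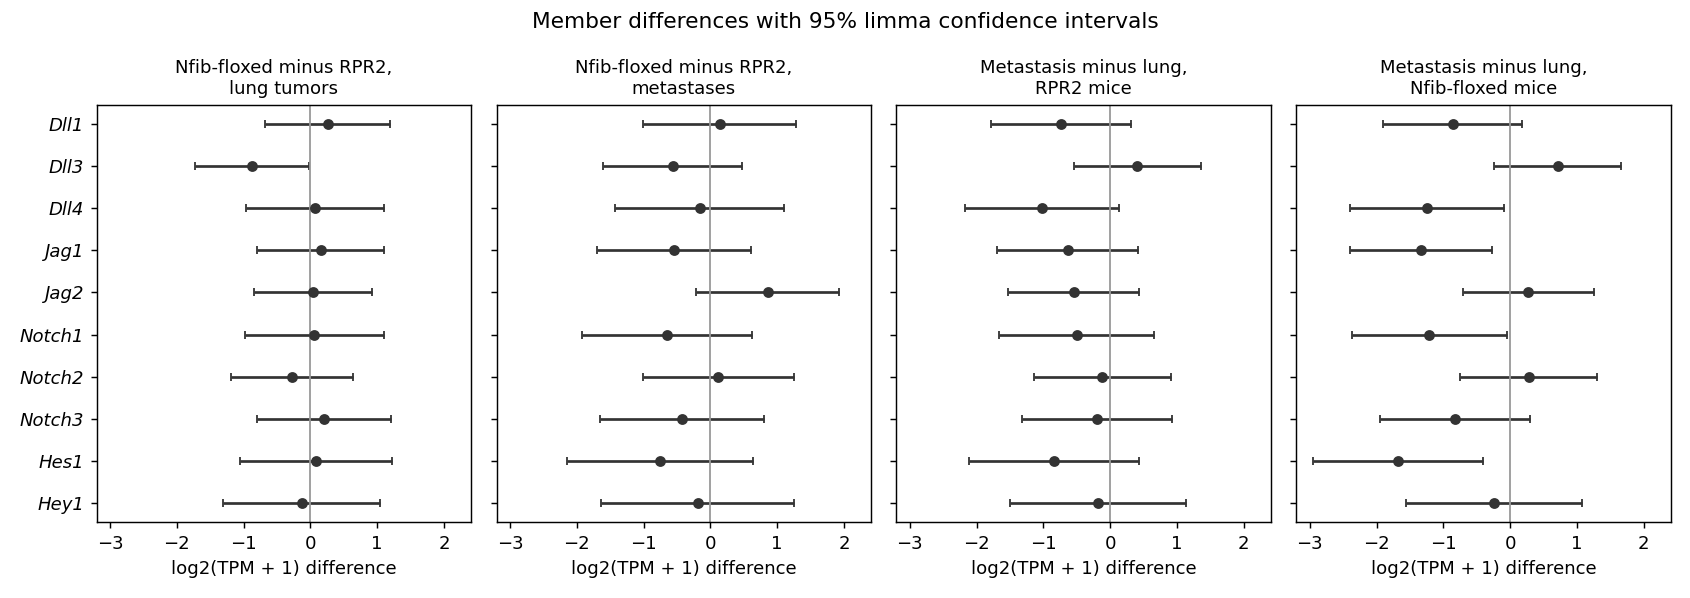
Differences on the log2(TPM + 1) scale (x axis) of the 10 genes in the 4 comparisons of 2 groups. Points are limma estimates and bars their 95% confidence intervals, unadjusted; intervals on 1 side of 0 are those of Dll3 for genotype in lung tumors and of Dll4, Jag1, Notch1 and Hes1 for tissue in Nfib-floxed mice, and none of these passed after adjustment.

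Between metastases and lung tumors most estimates were below 0, but 0 of the 10 genes passed limma's adjusted test in either genotype. In RPR2 mice limma called 5.61% of all genes. Of the 10, 9 differences were negative, against 59.7% of all genes, and 0 had an unadjusted p under 0.05, against 18.8% of all genes. The largest were Dll4 at -1.02 ± 0.52 (SE; limma adjusted p = 0.333), Hes1 at -0.85 ± 0.58 (adjusted p = 0.493) and Dll1 at -0.74 ± 0.47 (adjusted p = 0.459), while Dll3 was at 0.40 ± 0.43 (adjusted p = 0.699). The median of the 10 was -0.53, beside -0.15 over all genes. Values did not overlap for Dll1, Jag1 and Notch3, that is 3 of 10 against 46.1% of all genes. The Dll4 difference rested on single metastases: it was -0.13 without that of JHK1373 and -1.91 without that of JHK1394. The Hes1 difference was -0.30 without the lung tumors of JHK1394 and JHK1398, and that of Notch1 moved from -0.50 to -0.04. Of these mice only JHK1394 is RPR2, so both shifts came from its lung tumor alone.

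The lung and metastasis groups enter both kinds of comparison, so tissue and genotype results share samples. In Nfib-floxed mice 7 of 10 differences were negative, against 53.7% of all genes, with a median of -0.85 beside -0.05 over all genes. Here 0 passed, against 0.123% of all genes, and 4 of 10 had an unadjusted p under 0.05, against 9.39% of all genes. These were Hes1 at -1.68 ± 0.58 (SE; limma unadjusted p = 0.0145, adjusted p = 0.402), Jag1 at -1.33 ± 0.48 (unadjusted p = 0.0184, adjusted p = 0.430), Dll4 at -1.25 ± 0.52 (unadjusted p = 0.0361, adjusted p = 0.493) and Notch1 at -1.21 ± 0.53 (unadjusted p = 0.0433, adjusted p = 0.513). Hes1 was 41.8 ± 19.5 TPM (SD, n = 3) in the lung tumors and 11.2 ± 0.019 TPM (SD, n = 2) in the metastases. Values did not overlap for 6 of 10 (Dll4, Jag1, Notch1, Notch2, Notch3 and Hes1) against 22.5% of all genes, and of these Notch2 was the one higher in metastases. Without the metastasis of JHK1398 the differences were -1.68 for Hes1, -1.48 for Jag1, -0.75 for Dll4 and -1.03 for Notch1. Without the lung tumor of JHK997 that of Jag1 was -0.89. The Hes1 difference was -1.405 without the lung tumor of JHK1398 and -2.14 without that of JHK1399.

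Over both genotypes, a comparison added after the levels were seen, limma called 0 of the 10, against 5.88% of all genes, and 5 had an unadjusted p under 0.05, against 20.8% of all genes. These were Hes1 at -1.27 ± 0.41 (SE; 95% interval -2.17 to -0.36; limma unadjusted p = 0.0105, adjusted p = 0.105), Dll4 at -1.13 ± 0.37 (SE; 95% interval -1.95 to -0.32; adjusted p = 0.107), Jag1 at -0.99 ± 0.34 (SE; 95% interval -1.73 to -0.24; adjusted p = 0.126), Dll1 at -0.80 ± 0.33 (adjusted p = 0.204) and Notch1 at -0.86 ± 0.37 (adjusted p = 0.224). Dll3 was the main exception, at 0.56 ± 0.30 (adjusted p = 0.343). The median of the 10 was -0.66, beside -0.10 over all genes. Hes1 passed in 1 of 19 alternative settings, without the lung tumor of JHK1399 (-1.495, limma adjusted p = 0.0493), and its adjusted p ran from 0.0493 to 0.299 over all of them. Without the metastasis of JHK1398 the differences were -1.27 for Hes1, -0.88 for Dll4, -1.06 for Jag1, -0.48 for Dll1 and -0.76 for Notch1, with limma adjusted p values of 0.264 to 0.628. Without the lung tumors of JHK1394 and JHK1398, which held the most club cell marker RNA, the Hes1 difference was -0.85, its smallest size over the alternatives. Only Jag1 separated all 4 metastases from all 6 lung tumors, which 4.75% of all genes did.

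Within the 4 mice that gave both tissues, Dll4, Jag1, Notch3 and Hes1 were lower in the metastasis in 4 of 4 mice, against 14% of all genes, and 0 of the 10 were higher in 4 of 4, against 7.94% of all genes. The log2(TPM + 1) differences in JHK1373, JHK1394, JHK1398 and JHK1399 were -0.61, -0.82, -0.88 and -0.90 for Jag1. For Hes1 they were -0.40, -1.67, -2.24 and -0.76, and the largest belonged to the pairs whose lung tumor held the most club cell marker RNA. For Dll4 they were -1.73, -0.43, -1.63 and -0.85. For Notch3 they were small, at -0.18, -0.31, -0.47 and -0.20. Dll3 was near 0 in JHK1373 (-0.005) and higher in the metastasis in the other 3 (0.75, 0.43 and 0.82). Jag2 was lower in the metastasis of JHK1373 (-1.42) and higher in those of the other 3 mice (0.40, 0.65 and 0.61).

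**Figure D4:**
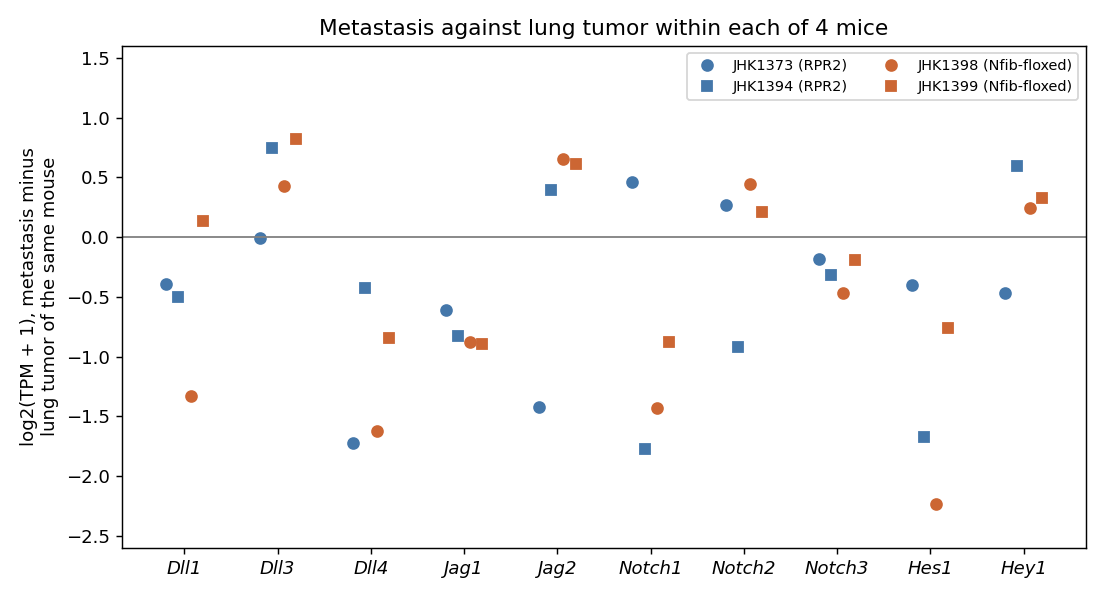
Metastasis minus lung tumor on the log2(TPM + 1) scale (y axis) for each of the 10 genes in each of the 4 mice with both tissues. Points are mice, blue for RPR2 and orange for Nfib-floxed; Dll4, Jag1, Notch3 and Hes1 lie below 0 in all 4 mice, and Jag1 spans the narrow range from -0.61 to -0.90.

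In bulk tumors fewer cells of a type and less RNA per cell cannot be told apart, so the marker lists of vessels and other host cells are given beside these values. The summed level of 9 endothelial markers was 78.2 to 147.2 TPM in RPR2 lung tumors, 118.5 to 196.3 TPM in Nfib-floxed lung tumors, 72.7 and 79.2 TPM in RPR2 metastases, and 56.3 and 54.3 TPM in Nfib-floxed metastases. It was thus lowest in the Nfib-floxed metastases, where Notch1 and Jag1 were also lowest. Dll4 (4.46 TPM) and Notch4 (3.82 TPM) were instead lowest in the RPR2 metastasis of JHK1373. The lung tumor of JHK1399 had the highest endothelial sum (196.3 TPM) and the lowest Jag1 of the lung tumors (5.61 TPM). The part of endothelial cells in those levels was not tested. The order of the endothelial sums rested on leaving out Vwf, which was done after its level was seen, because it differed widely between libraries. With Vwf the groups ran from 669.0 to 716.8, 650.1 to 1773, 89.5 to 98.98 and 388.4 to 1326 TPM. The RPR2 metastases were then the lowest group. Single markers also differed in direction: mean Emcn (5.44 against 4.135 TPM) and Esam (9.005 against 8.008 TPM) were higher in Nfib-floxed metastases. The means of the other markers in the sum of 9 were lower there, and Egfl7 had the largest gap (20.6 against 35.4 TPM). The sum of 10 mural cell markers was 560.9 TPM and that of 6 fibroblast markers 532.7 TPM in the lung tumor of JHK997, where Notch3 and Jag1 were highest, against 56.6 to 161.7 TPM and 111.6 to 202.1 TPM in the other lung tumors. In metastases the mural sum was 178.6 to 304.9 TPM, above those 5 lung tumors, while Notch3 was not higher there. The lung tumor of JHK1394, with the highest Notch1, Notch2 and Hes1, also had the highest sums of macrophage (3872 TPM against 82.2 to 679.3 TPM elsewhere) and alveolar type 2 markers (7558 TPM). All markers of these lists were above 0 in some library of each tissue, except Sntn, a ciliated cell gene, which was at 0 in the 4 metastases. The part of any of these cells in the Notch values was not tested.

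The wider pathway, a list of 81 genes by role that includes the 10, also had few calls. Of these, 76 reached a mean of 1 TPM and were tested, and shares of all genes called are in brackets. For genotype limma called 0 in lung tumors (0%), 1 in metastases (2.04%) and 0 for the mean effect (0.587%). For tissue it called 3 in RPR2 mice (5.61%), 1 in Nfib-floxed mice (0.123%) and 3 over both genotypes (5.88%). The interaction called 0 (0.581%). In the comparisons with 0 calls, 9, 6 and 4 of the 76 had an unadjusted p under 0.05 for genotype in lung tumors, the mean genotype effect and the interaction, that is 11.8%, 7.89% and 5.26%, against 7.93%, 13.4% and 9.68% of all genes. All calls fell on 4 genes, of which none is among the 10. Mfap2 and Mfap5, microfibril proteins that can bind Notch and Jagged proteins outside the cell, moved in opposite directions. Mfap2 stood at 5.67 to 17.7 TPM in lung tumors, 75.5 and 261.4 TPM in RPR2 metastases, and 22.1 and 14.6 TPM in Nfib-floxed metastases. It rose in RPR2 metastases by 3.48 ± 0.58 on the log2 scale (SE; limma adjusted p = 0.00679) and was lower in Nfib-floxed than in RPR2 metastases by a difference of -2.90 ± 0.64 (SE; limma adjusted p = 0.0468). The Mfap2 tissue difference in Nfib-floxed mice was 1.165 ± 0.58 (SE; limma adjusted p = 0.569). Its interaction was -2.31 ± 0.82 (SE; limma adjusted p = 0.346) and was not called. The genotype call was lost in 14 of 19 alternatives, with a limma adjusted p of 0.0313 to 0.316, and without the metastasis of JHK1398 it was -3.19 with an adjusted p of 0.119. Without the RPR2 metastasis of JHK1394 the rise in RPR2 metastases was 2.59 with an limma adjusted p of 0.0870.

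Mfap5 stood at 4.95 to 7.26 TPM in RPR2 lung tumors, 12.3 to 18.4 TPM in Nfib-floxed lung tumors and 0.044 to 0.617 TPM in metastases. It fell in metastases in both genotypes, with differences of -2.51 ± 0.42 in RPR2 mice (SE; limma adjusted p = 0.00694) and -3.58 ± 0.42 in Nfib-floxed mice (SE; limma adjusted p = 0.0193). The Nfib-floxed call was lost without either metastasis of that group, with limma adjusted p values of 0.106 without JHK1398 and 0.0574 without JHK1399. It was also lost without the lung tumor of JHK1398 (0.0529) or of JHK997 (0.0865). The RPR2 call held in 18 of 20 alternatives and was lost, among others, without the metastasis of JHK1394. Over both genotypes Mfap5 passed in 19 of 19 alternatives. Neurl1a, a ubiquitin ligase of Notch ligands, fell in RPR2 metastases with a difference of -1.26 ± 0.30 (SE; limma adjusted p = 0.0373), from 61.5 to 69.1 TPM in RPR2 lung tumors to 23.1 and 30.1 TPM in RPR2 metastases. Nfib-floxed lung tumors, at 28.3 to 39.98 TPM, and metastases, at 35.7 and 24.2 TPM, stood near the latter, with a tissue difference of -0.22 ± 0.30 (SE; limma adjusted p = 0.870). The Neurl1a genotype difference in lung tumors was -0.88 ± 0.27 (SE; limma unadjusted p = 0.00794, adjusted p = 0.595). Its interaction was 1.03 ± 0.43 (SE; limma unadjusted p = 0.0352, adjusted p = 0.457), so a difference in tissue change between the genotypes was not called. The call in RPR2 mice held in 10 of 20 alternatives and was lost, among others, without either RPR2 metastasis or any 1 RPR2 lung tumor (limma adjusted p 0.0917 to 0.268). Fbxw7, which marks the Notch intracellular domain for degradation, fell over both genotypes with a difference of -1.44 ± 0.35 (SE; limma adjusted p = 0.0399), a call that held in 4 of 19 alternatives (limma adjusted p 0.00953 to 0.127). Without the metastasis of JHK1398 the Fbxw7 difference was -0.96. Fbxw7 stood at 30.7 to 92.7 TPM in lung tumors, 10.5 and 10.3 TPM in RPR2 metastases, and 16.25 and 64.0 TPM in Nfib-floxed metastases. It was thus not lower in the metastasis of JHK1399, where the difference within the mouse was 0.05. Its mean genotype effect was 1.31 ± 0.36 (SE; limma unadjusted p = 0.00415, adjusted p = 0.153).

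By role, 5 of 5 noncanonical ligands were tested, and Mfap2 and Mfap5 were the ones that passed. Of 10 proteases that cut Notch or its ligands, 0 passed, while 10 of 10 differences were negative between metastases and lung tumors of RPR2 mice and 9 of 10 in Nfib-floxed mice, against 59.7% and 53.7% of all genes. An unadjusted limma p under 0.05 was found for 2 and 1 of the 10, against 18.8% and 9.39% of all genes. Of 16 genes of the nuclear complex and 5 glycosyltransferases, 0 passed in any comparison. At an unadjusted limma p under 0.05 there were 2 of the nuclear complex and 1 glycosyltransferase for genotype in lung tumors, against 7.93% of all genes. There was also 1 glycosyltransferase for tissue in RPR2 mice, against 18.8% of all genes, and 1 for the interaction, against 9.68%. Lists this short cannot be told from those shares. Rbpj ranged from 9.56 to 55.3 TPM. Of the HES and HEY family and other targets, 7 of 10 were tested and 0 passed, where limma called 0% to 5.88% of all genes. An unadjusted limma p under 0.05 was found for 1 of the 7 for genotype in metastases, against 12.8% of all genes, and 1 for the interaction, against 9.68%. There was also 1 for tissue in Nfib-floxed mice, against 9.39%, and 1 over both genotypes, against 20.8%. The lowest differences of this role were -1.74 for genotype in metastases and -2.135 for the interaction. Nrarp, an inhibitor induced by Notch, ranged from 12.1 to 36.1 TPM, Hes5 from 0.62 to 6.18 TPM and Hes6, a family member that opposes HES1, from 149 to 352 TPM. The receptor Notch4 stood at 7.36 to 8.13 TPM in RPR2 lung tumors, 7.87 to 23.8 TPM in Nfib-floxed lung tumors and 3.82 to 7.88 TPM in metastases. Dlk1, an inhibitory ligand, ranged from 0.03 to 9.44 TPM, and Rest, a repressor of neuronal genes that Notch induces, from 0.099 to 1.503 TPM with a mean under 1 TPM, so it was not tested.

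**Figure D5:**
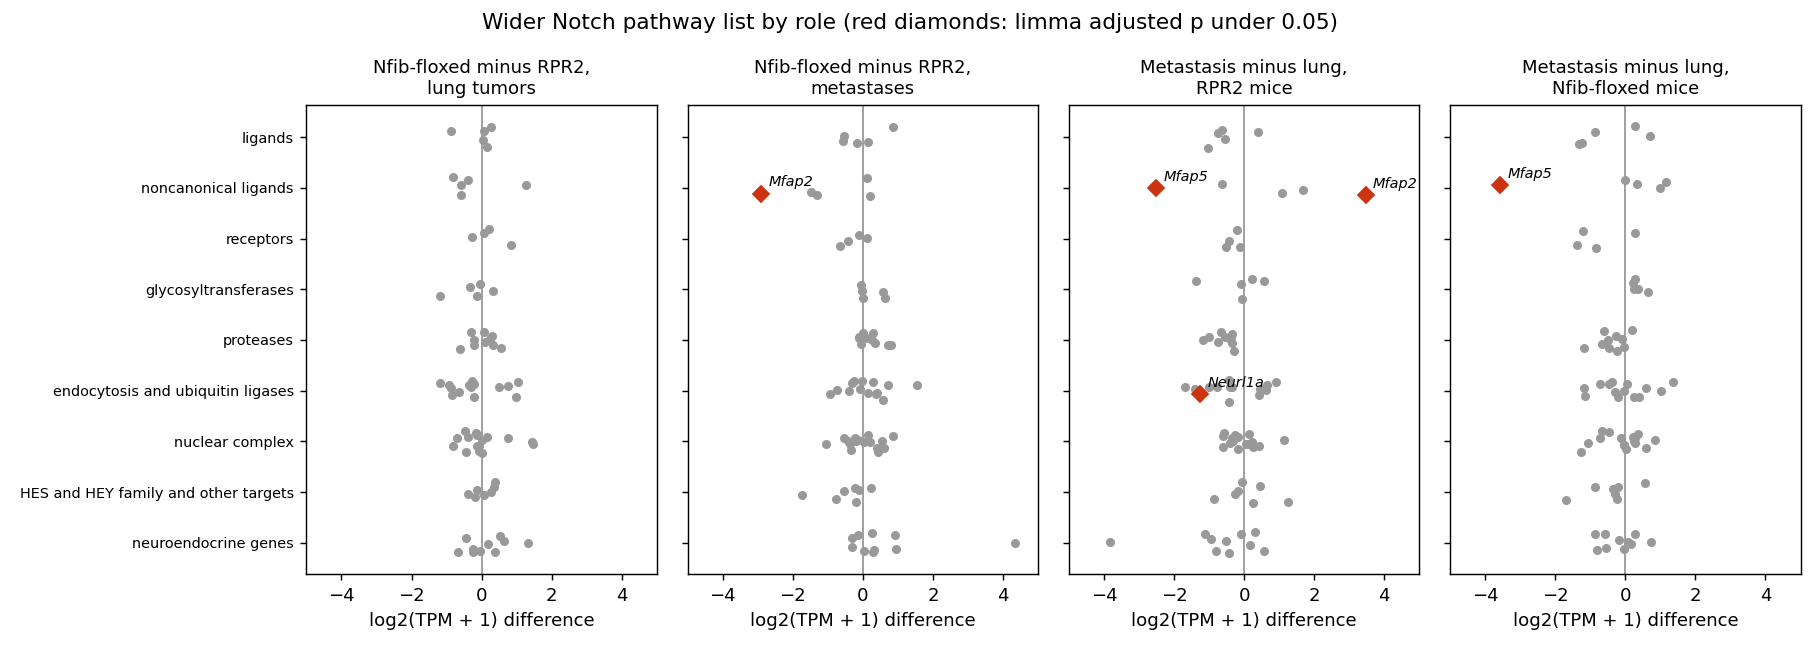
Differences on the log2(TPM + 1) scale (x axis) of the 76 tested genes of the wider pathway list by role in 4 comparisons. Grey points are genes that did not pass and red diamonds those with a limma adjusted p under 0.05, which are Mfap2, Mfap5 and Neurl1a.

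The genes whose profile was most like that of each of the 10 were ranked by Pearson's r of log2(TPM + 1) over the 10 libraries among genes whose mean reached 5 TPM. With 10 libraries that share mice and tissues, high values of r are common among so many genes, and they are given as a description only. Dll3 was most like Lsm2 (0.962), an RNA-binding protein, H2afx (0.959), a histone variant, and Zbtb12 (0.957). Dll4 was most like Nfkbia (0.958), the NF-kappa-B inhibitor, Il17ra (0.940) and Faim2 (0.937), and Jag1 was most like Clec14a (0.936), an endothelial membrane protein, Ntn1 (0.879) and Tspan8 (0.878). Dll1 was most like Carmil1 (0.919), Resf1 (0.904) and Hs3st1 (0.897), and Jag2 most like Nanp (0.962), Purb (0.938) and Chrac1 (0.933). Among receptors, Notch1 was most like S100a4 (0.971), Pon2 (0.964) and Man2b1 (0.961), Notch2 most like Elovl5 (0.841), Fam13a (0.791) and Txndc17 (0.789), and Notch3 most like Epn1 (0.916), Fis1 (0.915) and Lhfp (0.897). Hes1 was most like Lgals9 (0.956), a galectin, Slamf9 (0.940) and Cpne8 (0.940). Hey1 was most like Mospd2 (0.965), Btbd10 (0.960) and Arrdc3 (0.938), and shared none of its 3 genes with Hes1.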

How the data were processed

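Tumors were macrodissected, RNA was polyA-selected, and a NEBNext Ultra II kit was used for the libraries, per the labels' protocols. The submitters' processing notes name bcl2fastq 2.20, Salmon 0.12.0, R 4.1.0 and genome build GRCm38. The sources used here name no annotation, settings or strand, so reads of an antisense or overlapping partner cannot be separated from those of a gene. The authors deposited TPM per gene, and each of the 10 libraries sums to 1000000. Because TPM carries no read number, library depth is unknown and intervals for counting error are left out.

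From these values, log2(TPM + 1) of the 15503 genes that averaged 1 TPM or more was fitted with limma 3.58.1 in R 4.3.3. The model held the 4 groups (residual degrees of freedom 6, prior 4.56), used a mean trend and two-sided tests, and the threshold was 0.05 on Benjamini-Hochberg adjusted p. Mouse entered as a random effect (estimated correlation 0.051) where the genotype effect was averaged over tissues. The comparison of tissues over both genotypes was added after the data were seen. The fit was tested on simulated data. Python 3.11.15, numpy 2.4.6, pandas 2.3.3 and matplotlib 3.10.9 served the other steps. Gene positions come from GENCODE vM21 and promoter sequences from RefSeq.

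Libraries of a group come from different mice. The lung tumor and metastasis of a mouse tag come from 1 animal, and are therefore paired. Across genes, the deviations of a pair from their group means had correlations of -0.023, -0.008, 0.043 and 0.049, and fits with mouse as a replicate block were alternatives. In the fixed block fit Hes1 differed between tissues by -1.27 over both genotypes, the same as without it, with an adjusted p of 0.144.

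The 10 genes, the pathway and marker lists and the naming rule were chosen with earlier results of these data known. The rule names all 10 genes, each pathway gene past the threshold, 8 further pathway genes fixed by name (1 of them is not reported here), and for each of the 10 the 3 genes with the highest r, leaving out predicted genes. Alternatives covered the pseudocount, the filter on low values, the scaling, the block, the groups fitted and each library left out.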

Additional observations from a re-analysis of the deposited data

How the results depend on the processing

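Over 1326 alternative values of the 10 genes, 1247 kept their direction and their side of the threshold, 1 passed it (Hes1, above) and 78 changed sign. All sign changes were of differences of at most 0.40 in size that had not passed. With the lung tumors of JHK1394 and JHK1398 both removed, an alternative chosen after seeing the data, the mean genotype effect was 0.12 for Dll4, 0.023 for Hey1, 0.17 for Notch2 and 0.033 for Notch3. The genotype difference in lung tumors was then 0.18 for Hey1 and 0.22 for Notch2, the interaction of Notch2 was -0.10, and the tissue difference was 0.27 for Notch2 in RPR2 mice and -0.029 for Jag2 in Nfib-floxed mice. Under the fixed replicate block the tissue difference of Hey1 was 0.064 in RPR2 mice, 0.28 in Nfib-floxed mice and 0.17 over both genotypes, the interaction of Hey1 was 0.22, and the tissue difference over both genotypes was 0.059 for Jag2 and -0.0015 for Notch2. Under quantile normalization the tissue difference in RPR2 mice was 0.043 for Hey1, 0.15 for Notch2 and 0.087 for Notch3, and the mean genotype effect of Dll4 was 0.031. Under median centring the tissue difference in RPR2 mice was 0.058 for Hey1, 0.13 for Notch2 and 0.045 for Notch3, and that of Jag2 over both genotypes was 0.020. With a pseudocount of 5 the genotype difference of Notch1 in lung tumors was -0.0060. Leaving out 1 library at a time, the genotype difference in lung tumors ran from -0.0019 to 0.55 for Dll1, -0.018 to 0.22 for Dll4, -0.29 to 0.44 for Jag1, -0.32 to 0.34 for Jag2, -0.25 to 0.52 for Notch1, -0.49 to 0.11 for Notch2, -0.30 to 0.46 for Notch3, -0.27 to 0.63 for Hes1 and -0.66 to 0.39 for Hey1. That in metastases ran from -0.49 to 0.77 for Dll1, -1.05 to 0.73 for Dll4 and -0.75 to 0.38 for Hey1. The interaction ran from -0.75 to 0.51 for Dll1, -0.10 to 0.72 for Dll3, -1.12 to 0.66 for Dll4 and -0.62 to 0.51 for Hey1. The mean genotype effect ran from -0.10 to 0.51 for Dll1, -0.47 to 0.39 for Dll4, -0.18 to 0.12 for Notch2, -0.36 to 0.029 for Notch3 and -0.52 to 0.15 for Hey1. The tissue difference of Hey1 ran from -0.54 to 0.16 in RPR2 mice, -0.81 to 0.32 in Nfib-floxed mice and -0.50 to 0.068 over both genotypes. That of Jag2 ran from -0.029 to 0.63 in Nfib-floxed mice and -0.40 to 0.12 over both genotypes, and that of Notch2 from -0.33 to 0.27 in RPR2 mice and -0.024 to 0.27 over both genotypes. The cause of these changes was not tested. Counts of the 10 genes called stayed at 0 in every alternative of the 6 planned comparisons, and ran from 0 to 1 over both genotypes when a library was left out. For the wider list, the 1 call for tissue in Nfib-floxed mice became 0 with a pseudocount of 5, no filter, the fixed replicate block, the 2 groups alone, or without both lung tumors. The 1 call for genotype in metastases became 0 with a pseudocount of 0.1, no filter, a filter of 5 TPM, the 2 groups alone or without both lung tumors. The 3 calls for tissue in RPR2 mice became 5 with the 2 groups alone, and the 3 over both genotypes became 1 with the fixed replicate block. Leaving out 1 library gave 0 to 1, 0 to 2, 0 to 5 and 1 to 3 calls in these comparisons and 0 to 2 for the mean genotype effect, whose calls appeared without the metastasis (2) or the lung tumor (1) of JHK1398. Depth is unknown, and groups of 2 or 3 libraries limit what could be called.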
